A study of Saccharomyces cerevisiae with 3 samples.

Results

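The comparison described here is the DNA cleaved in living yeast by a Nup2 nuclease fusion (Nup2-MN) against uncleaved DNA, along chromosome VI of Saccharomyces cerevisiae (budding yeast). It covers every probe set of the array, 1250 of 1250, as the difference of log2 signals, Nup2-MN minus uncleaved. Cells in all samples were grown on 2% raffinose as the carbon source and then given 2% galactose for 1 h. Nup2-MN was left to cleave for 5 min at 30 °C. A fusion of histone H2b (H2b-MN), left to cleave for 1 min on ice, is quoted at some places for its own values. Uncleaved DNA was hybridised in the same way. The strain, the promoter driving the fusions and the strain that gave the uncleaved DNA were not given in the sources used here. Each sample has 1 value per probe set, the mean log2 signal of 3 independent experiments. The spread between those experiments was not analysed here, so no difference below was set against it and none carries a p-value.

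Nucleoporins are the proteins that build the nuclear pore complex, the channel through the nuclear envelope. Nup2 is a mobile nucleoporin of the nuclear side of the yeast pore, with a part in nuclear transport. In chromatin endogenous cleavage (ChEC), a protein is fused to micrococcal nuclease (MN), which cuts DNA when calcium is added, so that cuts fall near the places where the protein sits. Nothing in the sources used here says in which direction cleavage moves the array signal, so "higher" and "lower" below refer to signal alone.

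Probe sets at least 2-fold higher in Nup2-MN lay in narrow places along the chromosome. Unbroken runs of differences above 0 were wider and reached 30 probe sets. As deposited, the difference was more often below 0 than above it. Its median over the 1250 probe sets was -0.15, its quartiles were -0.56 and 0.32, and its extremes were -1.52 and 2.41. At the threshold of 2-fold (1 on the log2 scale), 85 probe sets, 6.80% of all, were higher in Nup2-MN, and 23, 1.84% of all, were lower. Higher probe sets made up 78.7% of those past the threshold. That share was 93.9% (124 of them higher, 8 lower) when each column was centred on its median, and 88.1% after the columns were quantile normalized (96 of them higher, 13 lower). At a threshold of 1.5-fold the balance depended on the scaling, with 212 higher and 287 lower as deposited and 255 higher and 146 lower with centred columns. With centring the median of the difference was -0.0048.

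Probe sets are placed by the number in their identifier, taken as their order along the chromosome. No source used here states that order, and a distance in numbers is not a distance in bases. Higher probe sets at most 3 numbers apart were joined, which gave 47 places. Of these, 21 held 2 or more higher probe sets and are called high groups, and 26 were isolated higher probe sets. The high groups held 59 of the 85 higher probe sets (69.4%) and covered 74 numbers, 5.92% of the chromosome's probe sets, of which 15 were themselves under the threshold. Their width was 2 to 9 probe sets with a median of 3. By number of higher probe sets, 14 groups held 2, 3 groups held 3 and 4 groups held 4 or more.

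**Figure D1:**
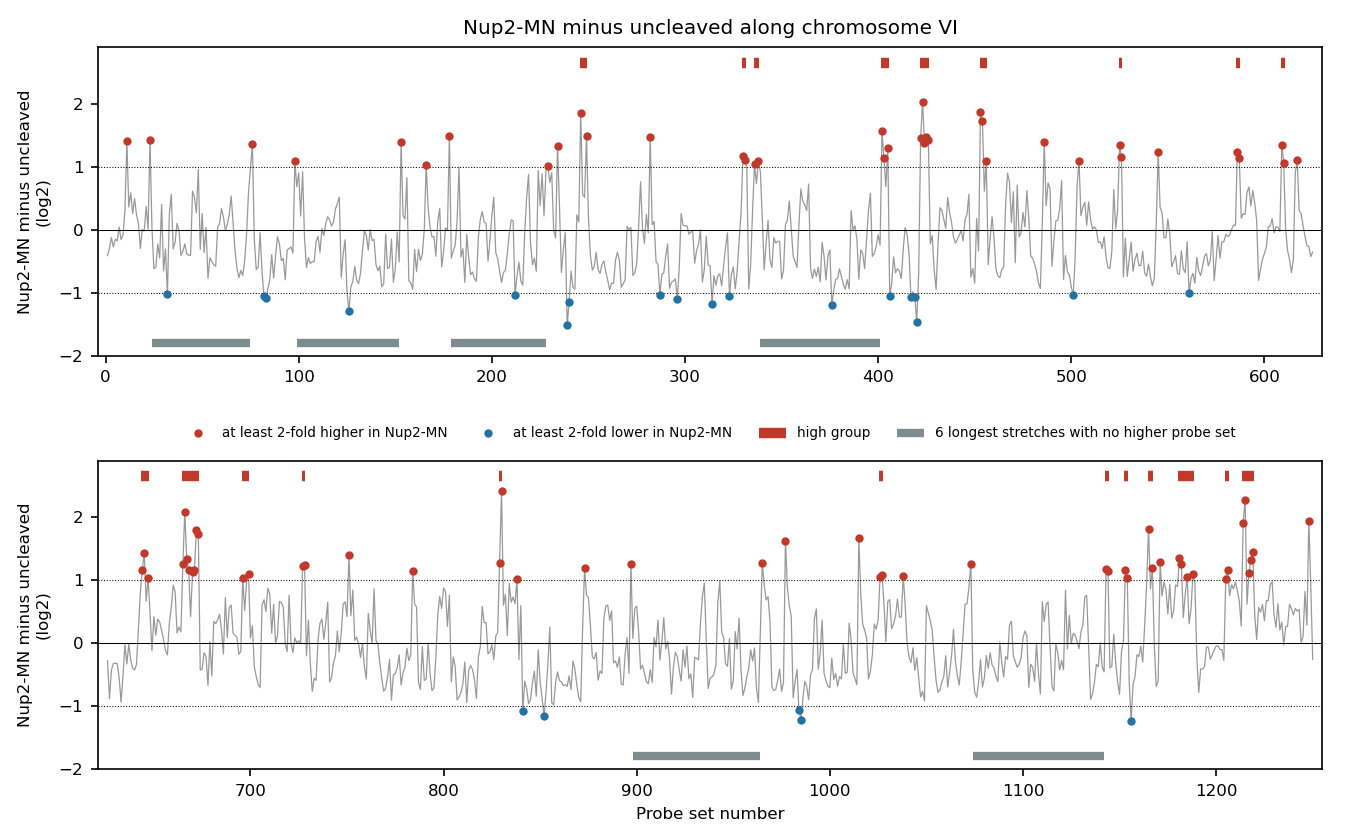
Difference of log2 signal, Nup2-MN minus uncleaved (vertical axis), against probe set number (horizontal axis), with numbers 1 to 625 above and 626 to 1250 below. Red points mark the 85 higher probe sets (2-fold or more) and blue points the 23 lower ones. Red bars mark the 21 high groups, grey bars the 6 longest stretches with no higher probe set, and dotted lines the threshold. The first 245 probe sets hold isolated red points only, while the groups crowd at 586 to 728 and 1143 to 1219.

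The threshold cut through a continuous range of values. The 3 probe sets just inside it were 229, 838 and 1205, at 1.01, 1.01 and 1.02. The 3 just outside were 183, 943 and 698, at 0.99, 0.99 and 0.99. Number 698 lies inside a high group, 183 and 943 inside long stretches without a higher probe set.

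The group with the most higher probe sets was 665 to 673, with 8 of its 9 past the threshold. In number order, Nup2-MN read 10.11, 9.08, 8.12, 6.48, 7.55, 8.04, 6.91, 8.92 and 8.78 log2 units there, against 8.85, 6.997, 6.79, 5.32, 7.13, 6.91, 5.75, 7.12 and 7.05 in uncleaved DNA. Every probe set of the group was higher in Nup2-MN, and the smallest gap was at 669, the 1 member under the threshold (0.42). The mean difference was 1.34 ± 0.49 (SD over 9 probe sets), and the difference peaked at 666, at 2.09. H2b-MN followed uncleaved DNA closely over the same 9, with a mean difference of 0.00. The right edge was abrupt: the difference was 1.73 at 673 and -0.43 at 674, a step of 2.16.

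The group 422 to 426 was the 1 group of 4 or more in which all probe sets passed the threshold. Nup2-MN read 7.03, 8.42, 9.53, 10.01 and 9.41, against 5.58, 6.39, 8.16, 8.54 and 7.99 in uncleaved DNA. The gap was between 1.37 and 1.47 at 4 of the 5 and 2.03 at 423. The group borders on lower values on both sides. The 5 probe sets before it averaged -1.06 and the 5 after it -0.43, and 3 of the 23 lower probe sets (417, 419 and 420) lie in those before it. The step into the group, from 421 to 422, was 2.13. H2b-MN minus uncleaved averaged 0.38 there.

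The group 1214 to 1219 had 5 of 6 probe sets past the threshold. Nup2-MN read 9.12, 9.58, 9.22, 8.12, 7.49 and 8.99, against 7.20, 7.30, 8.60, 7.01, 6.17 and 7.55 in uncleaved DNA. All 6 were higher in Nup2-MN, and the gap was narrowest at 1216 (0.62). The mean difference was 1.45 ± 0.59 (SD over 6 probe sets), and H2b-MN minus uncleaved averaged 0.64. The surroundings were raised as well, with a mean of 0.72 over the 5 probe sets before the group and 0.43 over the 5 after it.

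The group 1181 to 1188 was broad and shallow, with 4 of 8 probe sets past the threshold. Nup2-MN read 9.22, 9.93, 9.54, 8.94, 8.88, 8.93, 9.13 and 7.92, against 7.86, 8.67, 9.13, 8.17, 7.83, 8.62, 8.60 and 6.82 in uncleaved DNA. All 8 were higher in Nup2-MN, by 0.31 to 1.36, with a mean of 0.85 ± 0.40 (SD over 8 probe sets). The steps at its edges were small, 0.46 on the left and 0.15 on the right, because the outer neighbours were raised too. On the left, 1179 and 1180 read 0.92 and 0.90. On the right, 1189 lay just under the threshold at 0.95, and the next probe set, 1190, fell to -0.22. H2b-MN minus uncleaved averaged -0.40, with its lowest values at 1183, 1184 and 1185 (-1.52, -1.23 and -1.07).

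**Figure D2:**
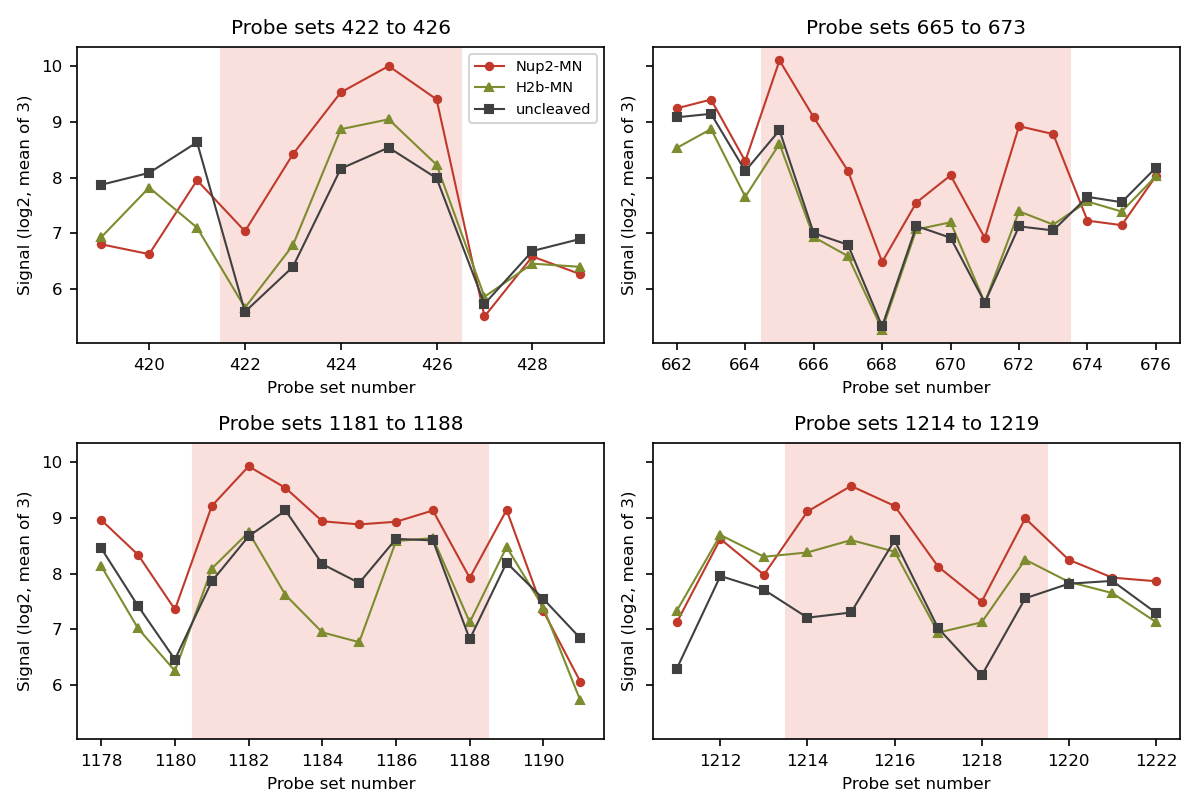
Log2 signal (vertical axis, mean of 3 experiments) of each probe set in and beside the 4 groups with 4 or more higher probe sets, for Nup2-MN (red circles), H2b-MN (green triangles) and uncleaved DNA (dark squares). The shaded part is the group and 3 neighbours are drawn on each side. Nup2-MN lies above uncleaved DNA at every shaded probe set. H2b-MN runs along uncleaved DNA in 665 to 673 and below it at 1183 to 1185.

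The 3 groups with 3 higher probe sets each were 402 to 405, 453 to 456 and 644 to 647, named here after their values were seen. Their mean differences were 1.17, 1.32 and 1.07. The first ended in the steepest edge of any group: the probe set after it, 406, was itself among the 23 lower ones, at -1.06, a step of 2.35. The 14 groups of 2 included 829 to 830, where the highest probe set of the chromosome lies. This was c6Mbo0830, at 10.18 in Nup2-MN against 7.76 in uncleaved DNA (difference 2.41). H2b-MN read 9.83 there, 2.07 above uncleaved DNA. The next highest, c6Mbo1215, belongs to the group 1214 to 1219 described above (2.28). H2b-MN minus uncleaved was 1.30 at c6Mbo1215. Over all 42 edges of the 21 groups, the step between the outermost higher probe set and its outer neighbour had a median of 1.17 and ranged from 0.14 to 2.35, and 29 steps were 1 or more. The outer neighbours lie under the threshold by construction, so every step is above 0.

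Levels of different probe sets also reflect how strongly their probes respond, so groups are compared here by differences only. The group means of Nup2-MN minus uncleaved had a median of 1.17 and ran from 0.85 to 1.84. For H2b-MN minus uncleaved, which uses the same uncleaved values, the group means had a median of 0.48 and ran from -0.40 to 1.502, beside a median of -0.04 over all probe sets. Set directly against H2b-MN, Nup2-MN was furthest above it in 665 to 673 (mean 1.34) and 1181 to 1188 (1.25) and least so in 1153 to 1154 (0.27) and 829 to 830 (0.34).

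The isolated higher probe sets were of similar height to the group peaks. A group peak is the highest of 2 or more higher probe sets, which raises it by construction. The median for the highest probe set of each group was 1.35. Differences at the isolated ones ran from 1.01 to 1.94, with a median of 1.28. Their direct neighbours, under the threshold by construction, varied widely: the median difference was 0.09 at the probe set before and 0.37 at the probe set after, and 14 of the 52 direct neighbours were below 0. The median of H2b-MN minus uncleaved, which uses the same uncleaved values, was 0.70 at the isolated ones, with a range from -0.83 to 1.58. Of the 26 isolated ones, 5 were below 0 in H2b-MN minus uncleaved, and 8 were at least 2-fold higher in H2b-MN as well. The isolated probe sets 11 and 229, named after their values were seen, were the lowest in H2b-MN minus uncleaved, at -0.61 and -0.83. They read 1.41 and 1.01 in Nup2-MN minus uncleaved.

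The groups were unevenly spaced. The distance between the mid-points of neighbouring groups had a median of 29.25 numbers and ran from 6.5 to 197, with a mean of 48.45 ± 47.4 (SD over 20 distances). Of the 20 distances, 13 were 36 or less and the other 7 were over 60, with none between. Split at the 7 wide distances, a choice made after the values were seen, the groups fell into 8 clusters. The largest were 586 to 728 and 1143 to 1219, with 6 groups each over 143 and 77 probe sets, and 402 to 456 with 3 groups. The cluster 330 to 338 held 2 groups, and the groups at 246 to 249, 525 to 526, 829 to 830 and 1026 to 1027 stood alone. Counting isolated probe sets too, the distances between the 47 places had a median of 23.25 and reached at most 70.5. Of the 7 wide intervals between groups, 6 held isolated probe sets, 14 in all, and the interval between 338 and 402 held none. Between 728 and 1143, a stretch of 414 probe sets, there were 2 groups and 10 isolated higher probe sets. The first 245 probe sets held 9 isolated ones and no group.

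In 10 equal parts of 125 probe sets each, the number of higher probe sets ran from 3 in 876 to 1000 to 19 in 1126 to 1250. The parts 1126 to 1250 and 626 to 750, with 15, together held 34 of the 85 (40.0%). They were also the parts with a median difference above 0, at 0.34 and 0.16, while the other 8 had medians from -0.48 (251 to 375) to -0.16. The corresponding medians of H2b-MN minus uncleaved were 0.03 and 0.08, and ran from -0.13 to 0.03 in the other 8. With columns centred on their medians, 1126 to 1250 held 33 higher probe sets, 626 to 750 held 18, 126 to 250 and 376 to 500 held 13 each, and no other part held over 10.

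**Figure D3:**
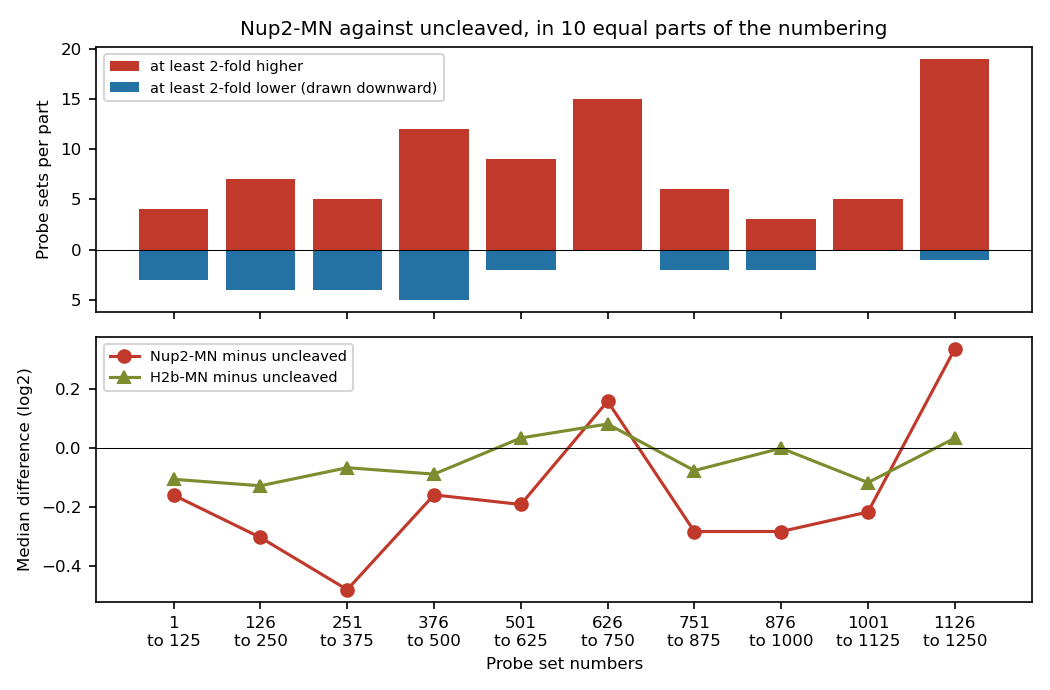
Upper panel: number of probe sets at least 2-fold higher (red, upward) or lower (blue, downward) in Nup2-MN, in each of 10 parts of 125 probe sets. Lower panel: median difference of log2 signal in each part for Nup2-MN minus uncleaved (red circles) and H2b-MN minus uncleaved (green triangles). The Nup2-MN median is above 0 at 626 to 750 (0.16) and 1126 to 1250 (0.34), the parts with the most higher probe sets (15 and 19).

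The higher probe sets left 59 unbroken stretches without one, of a median length of 16. That count includes the ends of the numbering and short gaps inside high groups. Of the 59, 25 were 20 probe sets or longer and together held 920 probe sets, 73.6% of all probe sets. The 6 longest were 1074 to 1142 (69 probe sets), 898 to 964 (67), 339 to 401 (63), 99 to 152 (54), 24 to 75 (52) and 179 to 228 (50). Their mean differences were -0.19, -0.19, -0.30, -0.28, -0.13 and -0.19 in the same order, against -0.06 over all probe sets, with SDs over probe sets of 0.42 to 0.54. Their medians were -0.26, -0.27, -0.38, -0.33, -0.23 and -0.32, each below the median of all probe sets (-0.15). All probe sets include the 85 higher ones, which the stretches leave out by definition, so stretch values lie lower in part by construction. With columns centred on their medians the 6 means were -0.04, -0.04, -0.15, -0.13, 0.02 and -0.04, so how far they lay from 0 depended on the scaling. None of these 6 was among the 3 deepest. Within the 6 the share of probe sets below 0 ran from 59.6% to 74.1%, against 59.1% of all probe sets, the higher ones included.

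Nor were the long stretches flat. In 898 to 964 the difference reached 0.99 at 943 and went down to -0.94 at 963, and in 1074 to 1142 it ran between -0.89 at 1135 and 0.84 at 1122. Over the 25 stretches of 20 or more, 100 probe sets (10.9%) were at least 0.5 higher in Nup2-MN, under the threshold by definition. Of all probe sets, the higher ones included, the share was 19.2%. In 3 of the stretches there were none. Means of the 25 ran from -0.59 to 0.45, and 18 of the 25 lay under the mean of all probe sets. By medians, 17 of the 25 lay under that of all probe sets. Both overall values include the higher probe sets, which the stretches leave out by definition.

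The deepest of the 25 were shorter, and are named here after their values were seen. In 839 to 872 the mean difference was -0.59 over 34 probe sets, 91.2% of them below 0, with 852 at -1.15. In 77 to 97 all 21 were below 0, with a mean of -0.52, and in 283 to 329 the mean was -0.48 over 47 probe sets, 4 of them at least 2-fold lower. H2b-MN minus uncleaved averaged -0.10, -0.27 and -0.17 in these 3. At the other end, 1220 to 1247 averaged 0.45 with 1 of its 28 probe sets below 0, and 700 to 726 averaged 0.18. H2b-MN minus uncleaved averaged 0.44 and 0.17 in these.

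**Figure D4:**
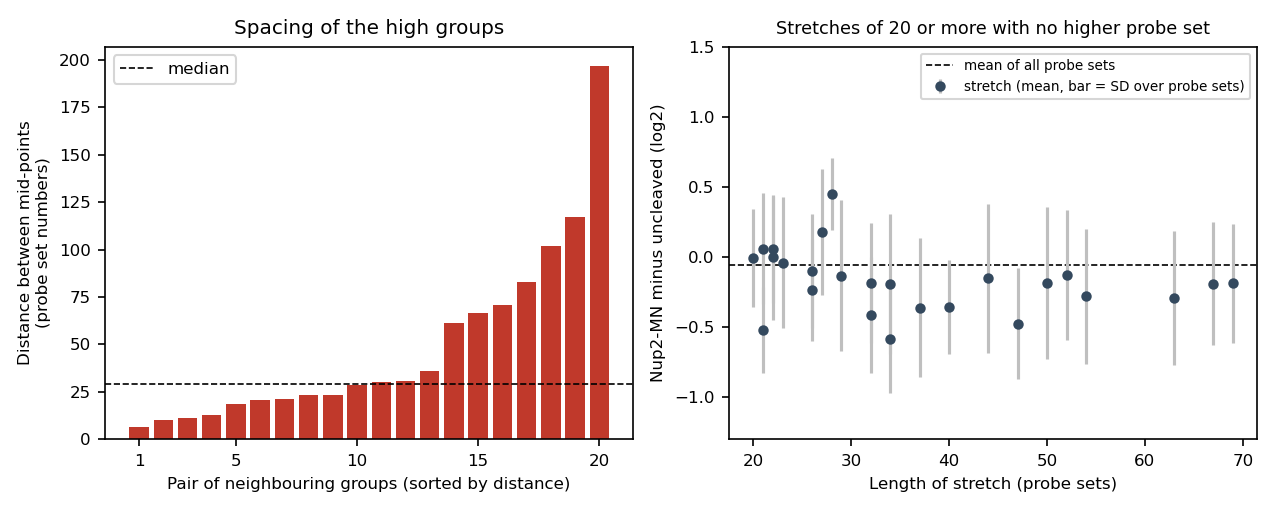
Left: distances between the mid-points of neighbouring high groups, in probe set numbers, sorted from 6.5 to 197, with the median of 29.25 dashed. Right: mean of Nup2-MN minus uncleaved (log2, bar is the SD over probe sets) against length for the 25 stretches of 20 or more probe sets without a higher one. The mean of all probe sets (-0.06), the higher ones included, is dashed. The stretches of 50 or more lie between -0.30 and -0.13, and the lowest mean (-0.59) belongs to a stretch of 34.

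The longest unbroken run of differences below 0 was 551 to 582, with 32 probe sets and a mean of -0.47. Runs of 10 or more below 0 numbered 22, and runs of 10 or more above 0 numbered 8. In all there were 131 runs below 0 (median length 4) and 130 above 0 (median length 3). Of all probe sets, 59.1% were below 0, and the runs were not recounted with centred columns. The longest above 0 were 1205 to 1234 (30 probe sets, mean 0.79), 1171 to 1189 (19, mean 0.83) and 1023 to 1040 (18, mean 0.51). H2b-MN minus uncleaved averaged 0.52, -0.16 and -0.31 in those. Measured from the median of all probe sets in place of 0, the longest low runs were 365 to 385 and 552 to 572, with 21 probe sets each and means of -0.71 and -0.59.

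The 23 lower probe sets were scattered over 18 places, and 4 of those places held more than 1. The lowest was c6Mbo0239, at 6.82 in Nup2-MN against 8.34 in uncleaved DNA (difference -1.52), followed by c6Mbo0420, at 6.62 against 8.08 (-1.46). H2b-MN read 6.96 and 7.82 at these. Of the 23, 9 (39.1%) lay within 5 numbers of a higher one, against 38.6% of all 1165 probe sets that were not higher. Their median distance to the nearest higher probe set was 7 and the largest was 27. No lower probe set lay in 626 to 750 or 1001 to 1125.

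Away from the higher probe sets, the difference settled within a few numbers. Its mean was 0.24 ± 0.48 at a distance of 1 (SD over 109 probe sets), 0.02 ± 0.54 at 2 (93 probe sets) and -0.12 ± 0.54 at 3 (87 probe sets). From 4 to 19 it stayed between -0.14 and -0.29, and at 20 or more it was -0.27 ± 0.49 (144 probe sets). Past a distance of 1, the SD at each distance was wider than the change in the mean from the distance before. That SD is the spread of single probe sets, not the error of a mean. H2b-MN minus uncleaved averaged 0.52 at the higher probe sets themselves and -0.04 at a distance of 1, and stayed between -0.18 and 0.08 beyond. It uses the same uncleaved values by which the higher probe sets were chosen, so its value there is not independent of that choice.

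**Figure D5:**
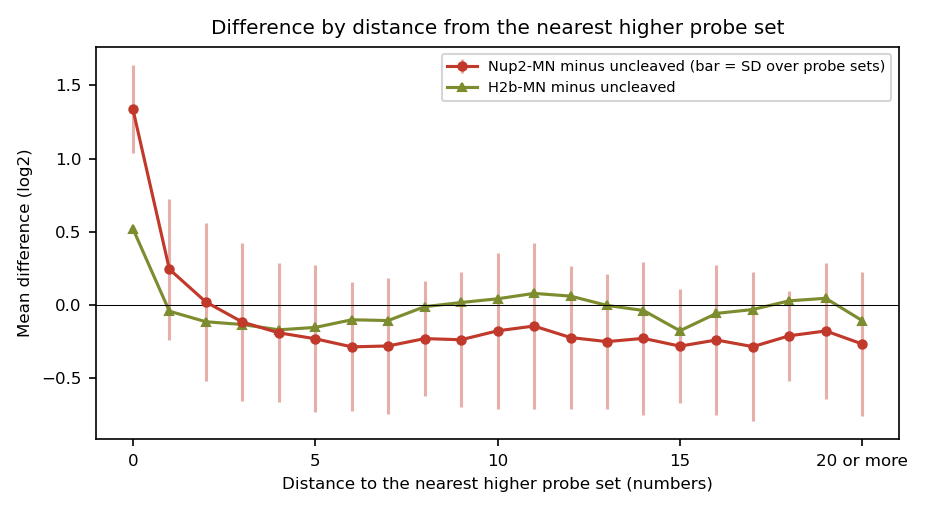
Mean difference of log2 signal (vertical axis) by distance in numbers to the nearest probe set at least 2-fold higher in Nup2-MN (horizontal axis; the last point pools distances of 20 or more). Red circles are Nup2-MN minus uncleaved with bars of 1 SD over probe sets, and green triangles H2b-MN minus uncleaved. The red point at distance 0 is high by choice (mean 1.34), and the green point there uses the same uncleaved values. The red mean is 0.24 at 1, 0.02 at 2 and below 0 from 3 onward.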

How the data were processed

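DNA of the samples was hybridised to Affymetrix tiling arrays of chromosome VI, per the deposited README. Per that README, the authors grouped probes into sets of at most 16, none overlapping a site of the restriction enzyme MboI, and computed log2 values with Bioconductor 1.5 by RMA, the robust multi-array average. The deposited log2 value is the mean of 3 experiments. RMA usually includes quantile normalization, which removes a shift common to most probe sets.

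From these, Nup2-MN minus uncleaved was computed with no further scaling, filter or pseudocount. The 2-fold threshold and the joining distance of 3 have no error behind them. Precision is limited by the number of arrays, and SDs are over probe sets. Named items were the 2 highest and 2 lowest probe sets, groups with 4 or more higher probe sets and the 6 longest stretches; others are marked. The comparison, thresholds and alternatives were chosen with earlier results of these data known. Of the 1250 identifiers, 0 matched the gene table at hand; genes, coordinates and sequences were not used here. Alternatives were column centring, quantile normalization, leaving out the lowest 10% by signal, removal of a lowess trend (span 0.4), a 1.5-fold threshold, averaging 3 neighbours, joining distances of 1 and 5, and dropping 50 probe sets at each end. A 1.5-fold threshold with centring was added after the data were seen. The scripts were tested on simulated data. Computations used pandas 2.3.3 and numpy 2.4.6 under Python 3.11.15, with statsmodels 0.14.6 for lowess, scipy 1.17.1 for ranks and matplotlib 3.10.9 for figures.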

Additional observations from a re-analysis of the deposited data

Results flagged for a closer look

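In the group 1181 to 1188 the means of the cleaved samples lay on opposite sides of uncleaved DNA. Nup2-MN minus uncleaved averaged 0.85 and H2b-MN minus uncleaved -0.40, a mean difference of 1.25 on the log2 scale for Nup2-MN minus H2b-MN. The H2b-MN mean rests on 1183, 1184 and 1185 (-1.52, -1.23 and -1.07), and its other 5 values ran from -0.04 to 0.30. With 1 value per sample this difference was not tested, and cleavage time and temperature differed between the samples along with the fusion.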

How the results depend on the processing

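No paired analysis was possible because each group has 1 column of means. With no spread between experiments, counts describe values past a threshold. At 1.5-fold there were 212 higher and 287 lower probe sets, 51 groups and a median distance of 19. At 1.5-fold with centred columns these were 255, 146, 55 and 17.5, with 12 stretches of 20 or more, so the excess of lower over higher at 1.5-fold was present without centring and absent with it. Averaging 3 neighbours gave 37 higher, 8 lower, 11 groups, 3 isolated probe sets, 9 stretches of 20 or more and a longest stretch of 330. The threshold and the averaging shift such counts by construction. The lower count was 8 with centring, 13 with quantile normalization and 10 with the lowess trend removed; apart from the offset that centring removes, the cause was not tested. The other 44 recomputed counts and distances stayed within 1.5 times the reported value. They include 30 groups with centring and 19 with a joining distance of 1. Of the named items, the mean of 24 to 75 turned to 0.022 with centring, c6Mbo0239 went to -0.90 with averaging, and the other 54 values kept their sign and stayed within 1 SD over probe sets or past the threshold. For the stretch means that SD is a loose limit. With centring, 1074 to 1142 went from -0.19 to -0.04, beside an SD of 0.42.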
